A study of Mus musculus with 19 samples.

Results

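The nuclear-encoded genes of the mitochondrial respiratory chain were followed in the striatum of WT mice and of 3 knock-in (KI) genotypes of mutant huntingtin. The genes were taken by symbol, as those starting with Ndufa, Ndufb, Ndufc, Ndufs, Ndufv, Uqcr or Atp5, or with Cox and a digit, together with Sdha, Sdhb, Sdhc and Sdhd, without those marked -ps. A minimum of 10 counts in at least 4 of the 19 mice was required. Of 54232 genes counted, 117 matched by symbol, 9 of these were marked -ps and 7 did not reach the minimum, which left 101. They were 36 subunits of complex I, 4 of complex II, 8 of complex III, 19 of complex IV, 16 of complex V and 18 assembly factors. The question was whether their transcript levels differed between the 4 genotypes, complex by complex.

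All mice had the strain background C57/BL/6 by their labels and were 6 months old. The WT group held 7 mice, and the KI-96, KI-571 and KI-FL groups held 4 mice each. KI-FL mice are the HD140Q line, in which the mouse huntingtin gene carries an expanded CAG repeat and encodes full-length mutant protein. KI-96 and KI-571 mice carry the same expanded allele, cut short in its coding sequence by CRISPR/Cas9 so that N-terminal fragments are made. The study tested the motor function of these KI mice as heterozygotes with 1 normal allele, since homozygotes of both truncations are not viable. It bred each truncation line by crossing edited founders with WT mice. Its RNA-seq methods do not state zygosity, so that of the sequenced KI-FL mice is not known here. Neither the sex of a mouse nor the batch in which it was killed is stated in its label. Nothing was measured in sorted cells, and the values are therefore averages over all cell types of the dissected tissue, in which fewer cells of a type and less RNA per cell cannot be told apart.

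The respiratory chain passes electrons from NADH through complex I and from succinate through complex II to coenzyme Q, then through complex III, cytochrome c and complex IV to oxygen. Complexes I, III and IV pump protons across the inner mitochondrial membrane, and complex V, the ATP synthase, uses the returning protons to make ATP. All of these except complex II mix subunits encoded in the nucleus with subunits encoded in mitochondrial DNA, and the nuclear genes lie scattered over the genome and are transcribed by many of the same factors. Striatal projection neurons depend on oxidative metabolism, and poisons of complex II are known to damage the striatum preferentially.

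Before the values, the start regions of 5 genes are shown, because these were the members that passed the adjusted threshold against WT once the 2 libraries described below were left out. They were thus chosen after their values had been seen. Each stretch runs 5′ to 3′ on the strand of the gene, from 250 bases before to 50 bases after its RefSeq start, on build GRCm38.p6. Capitals mark GCGCATG, which with CGC after it makes the whole site of NRF1 (a factor known for driving nuclear respiratory genes), CCGGAAG of the ETS family, or GCCATNTT of YY1, on either strand.
Ndufb8, chr19:44555393-44555692, minus strand: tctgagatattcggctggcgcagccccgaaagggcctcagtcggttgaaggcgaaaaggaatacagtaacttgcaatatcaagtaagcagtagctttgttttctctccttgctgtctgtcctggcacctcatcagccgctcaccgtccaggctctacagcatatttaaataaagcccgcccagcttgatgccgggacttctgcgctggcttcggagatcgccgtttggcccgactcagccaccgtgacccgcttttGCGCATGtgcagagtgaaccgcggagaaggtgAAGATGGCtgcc
Ndufb6, chr4:40279372-40279671, minus strand: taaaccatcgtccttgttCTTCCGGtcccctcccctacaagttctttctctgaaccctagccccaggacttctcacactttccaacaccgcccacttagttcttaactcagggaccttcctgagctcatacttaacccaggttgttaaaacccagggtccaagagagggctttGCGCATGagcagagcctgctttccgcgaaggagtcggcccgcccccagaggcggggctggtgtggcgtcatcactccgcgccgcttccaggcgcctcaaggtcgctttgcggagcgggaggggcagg
Ndufb11, chrX:20617570-20617869, minus strand: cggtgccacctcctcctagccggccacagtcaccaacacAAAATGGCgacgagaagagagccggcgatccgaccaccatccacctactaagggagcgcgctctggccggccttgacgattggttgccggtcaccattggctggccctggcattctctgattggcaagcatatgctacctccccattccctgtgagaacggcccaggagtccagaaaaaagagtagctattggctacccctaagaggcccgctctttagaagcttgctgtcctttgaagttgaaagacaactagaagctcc
Ndufa13, chr8:69901971-69902270, minus strand: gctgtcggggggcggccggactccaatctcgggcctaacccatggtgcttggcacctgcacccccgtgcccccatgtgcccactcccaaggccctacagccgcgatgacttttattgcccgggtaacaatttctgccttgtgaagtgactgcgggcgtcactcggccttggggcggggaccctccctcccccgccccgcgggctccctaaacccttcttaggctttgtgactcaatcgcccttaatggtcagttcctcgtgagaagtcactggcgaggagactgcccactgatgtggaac
Atp5g2, chr15:102670998-102671297, minus strand: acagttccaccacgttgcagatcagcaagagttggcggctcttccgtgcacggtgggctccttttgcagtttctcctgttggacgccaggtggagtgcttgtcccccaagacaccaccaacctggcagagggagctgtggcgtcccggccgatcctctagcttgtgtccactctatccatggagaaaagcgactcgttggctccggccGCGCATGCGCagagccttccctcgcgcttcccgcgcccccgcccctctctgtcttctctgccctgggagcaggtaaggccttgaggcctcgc
Atp5g2 held the whole NRF1 site, Ndufb8 and Ndufb6 held the shorter GCGCATG, and Ndufa13 held none of these letters in this window.

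RefSeq start regions were found for 81 of the 101 members, with 87 regions in all. The whole NRF1 site, GCGCATG followed by CGC, stood in 7 of these 87 (8.05%), against 0.971% of all 32851 mouse start regions of the same length and 1.33% of those of coding genes. The 7 belonged to Atp5g2, Atp5k, Cox6a1, Ndufa11, Ndufaf4, Ndufaf5 and Uqcrc1. CCGGAAG stood in 27.6% against 8.86% of all regions and 11.6% of coding ones. GCCATNTT stood in 23.0% against 6.05% and 6.37%, in the same order. The SP1 motif GGGCGG stood in 46.0% against 35.7% and 46.2%, so that it was not above the coding share. CCAAT of NFY (42.5% against 37.4% and 38.2%) and TATAAA (10.3% against 13.6% and 12.6%) also lay nearer to these shares. GCGCATG overlaps the whole NRF1 site wherever that occurs. These are matches of letters, and binding was not measured.

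Each library held between 12669809 and 26388542 reads counted on genes (median 18202412), of which members took 0.575% to 1.15%. The 10 genes fixed as markers of striatal projection neurons were high in every mouse, with Ppp1r1b at 1658 CPM (counts per 1000000, with TMM-scaled library totals) and Pde10a at 1485 CPM on average in WT, and their summed level ranged from 5717 to 9134 CPM in WT mice. Tests of each gene with edgeR's quasi-likelihood method were two-sided and used all 19 mice together, and 100 members were among the 18521 genes tested, Cox7b2 being too low. Cox16 and Atp5g2 share 51.7% and 34.7% of their 100-base stretches with other annotated genes, so their counts are uncertain. Exons of Ndufb8 and Ndufb6 overlap another gene on the same or the other strand over 4.26% and 39.0% of their length, those of Ndufa13 and Ndufb11 overlap a gene on the other strand over 30.0% and 12.9%, and Atp5o, with at most 207 counts in a mouse, overlaps a second gene of the same symbol. Strand was not stated for the counting.

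A pair of libraries stood apart from the rest in the shares of counts or the genes without counts. In KI-96 replicate 3, members took 0.575% of the counts, against 0.917% to 1.15% in the other 18 mice, and 24.2% of reads fell on no annotated feature, against 11.1% to 16.0%. In KI-FL replicate 4, 3186 of the tested genes had no count, against 10 to 222 in the other mice, and 4 members were at 0 there (Cox4i2, Cox7a1, Cox8b and Cox7b2). The counts against WT, the medians over the members and the fold changes named below as moving are therefore also given without these libraries. Other mice stood apart in markers of other tissue. The 6 cortical neuron genes fixed as markers summed to 1050 CPM in WT replicate 3 and 444 in KI-571 replicate 2. Their group medians were 63.0 CPM in WT and 80.9 in KI-571. Choroid plexus genes are described below. The part of cortical tissue in the values of the members was not tested.

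In WT striatum, levels compared per kb of exon spread over more than 3 orders of magnitude. Cox6a1, an abundant complex IV subunit of most tissues, was the highest at 568 ± 123 CPM per kb (SD, n = 7), followed by Cox8a at 479 ± 72.5, Atp5b at 260 ± 24.6, Atp5a1 at 239 ± 11.8 and Cox4i1 at 189 ± 14.0. The first pair in this order, and Atp5b and Atp5a1 after it, did not differ beyond their SDs. Atp5b and Atp5a1 encode the beta and alpha subunits of the catalytic head of ATP synthase. The median over the members was 45.0 CPM per kb in complex I, 47.5 in complex II, 62.8 in complex III, 69.9 in complex IV, 55.2 in complex V and 7.15 among the assembly factors. The lowest levels were those of Cox16 (0.191 ± 0.0582), Cox7b2 (0.734 ± 0.561), Cox20 (1.18 ± 0.380), Cox17 (1.28 ± 0.122) and Ndufa4l2 (1.43 ± 0.206). All of these except the pair Cox7b2 and Ndufa4l2 are assembly factors of complex IV. The annotated exons of Cox17 form 1 block of 5773 bases, and a greater length lowers a value per kb. Exons of Cox20 overlap a gene on the other strand over 91.1% of their length. Those of Cox16 overlap a gene on the same strand over 56.8%, and reads in such overlaps may stay uncounted. The part of annotation in these low ranks was not tested.

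**Figure D1:**
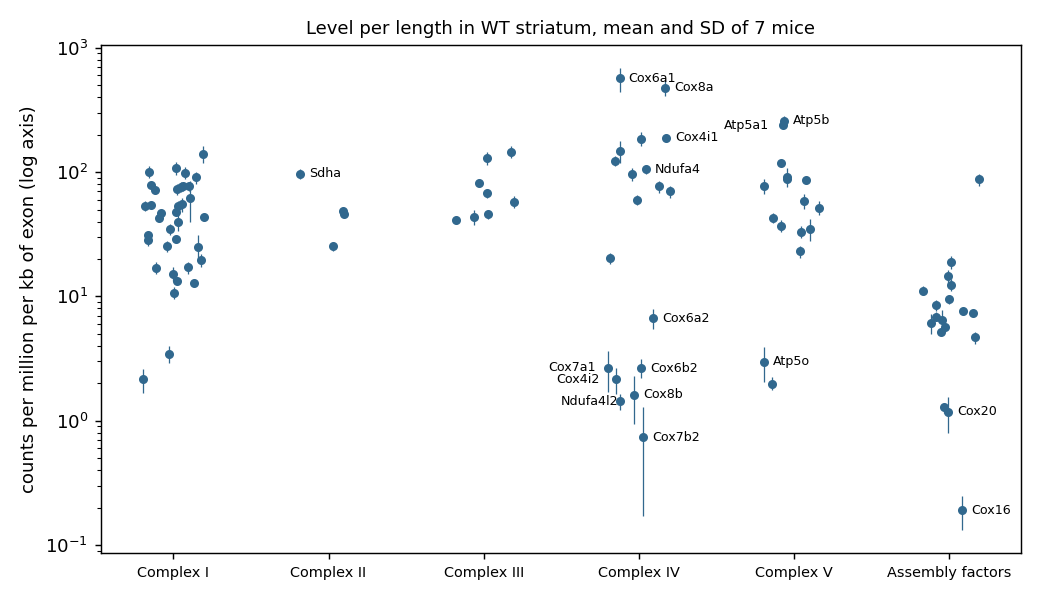
Level of each of the 101 members in WT striatum in CPM per kb of annotated exon (vertical axis, logarithmic) by complex. Points are means of 7 WT mice and lines are SD. The abundant subunits of complexes IV and V lie highest. Alternative isoforms of complex IV and the assembly factors Cox16 and Cox20 lie lowest, and exons of both these factors overlap other genes.

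Complex IV has pairs of isoforms, of which the alternative member is known from muscle, testis, lung or hypoxic cells. In WT striatum the common form was far above the alternative in each of the 6 pairs. Cox6a1 stood at 568 CPM per kb against 6.66 ± 1.23 for Cox6a2, and Cox8a at 479 against 1.62 ± 0.683 for Cox8b. Cox6b1 stood at 185 ± 23.6 against 2.66 ± 0.452 for Cox6b2, and Cox7a2 at 96.8 ± 11.6 against 2.68 ± 0.977 for Cox7a1. Cox4i1 stood at 189 against 2.15 ± 0.501 for Cox4i2, and Ndufa4, now counted with complex IV, at 106 ± 8.63 against 1.43 for Ndufa4l2.

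No member passed an adjusted p of 0.05 in any comparison, in the fit of all 19 mice. Between KI-FL and WT, 11 members were higher and 4 lower at an unadjusted p under 0.05, while 7.89% of all tested genes were higher and 8.84% lower, and 0.194% passed the adjusted threshold. Between KI-571 and WT, 9 members were higher and 0 lower, against 3.89% and 3.83% of all genes, with 0.0324% past the adjusted threshold. Between KI-96 and WT, 1 member was higher and 6 were lower, against 4.36% and 3.09% of all genes, with 0.0270% past the adjusted threshold. In the test of any difference among the 4 genotypes, 5 members had an unadjusted p under 0.05, against 11.7% of all genes, with 0.140% past the adjusted threshold. The 3 comparisons share the same 7 WT mice and are not independent of each other. The median log2 fold change of the 100 tested members was -0.14 in KI-96, 0.05 in KI-571 and 0.03 in KI-FL, beside -0.02, -0.01 and -0.03 over all tested genes.

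Markers of other cells moved with some of these groups. In KI-FL, 3 of 6 astrocyte genes were lower and 5 of 6 below 0 at a median log2 fold change of -0.26, and their mean lay between -0.29 and -0.22 in the 4 mice, beside -0.31 to 0.14 in WT mice. Of the oligodendrocyte genes, 1 of 6 was lower and 6 of 6 lay below 0 at a median of -0.23, with mice between -0.36 and -0.12, beside -0.32 to 0.22 in WT mice. Of the parvalbumin interneuron genes, 2 of 5 were lower in KI-FL and 2 of 5 in KI-571, with 1 of 5 above 0 in each. Of 6 microglia genes, 2 were higher and 1 lower in KI-FL. These counts are at an unadjusted p under 0.05. By that measure 7.89% of all tested genes were higher and 8.84% lower in KI-FL, and 3.83% lower in KI-571. Fold changes in KI-FL were below 0 in 9987 of the 18521 tested genes. Of 5 red cell genes, 2 passed the adjusted threshold as higher in KI-571 than in WT, against 0.0324% of all genes. As higher in KI-571 than in KI-FL, 4 passed, against 0.0864% of all genes in either direction. In KI-FL, 2 of the red cell genes were lower than in WT at an unadjusted p under 0.05. Their summed level ranged from 79.5 to 214 CPM in WT, from 163 to 483 in KI-571 and from 43.5 to 103 in KI-FL. No gene of these lists was at 0 in any mouse, and their part in the values of the members was not tested.

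**Figure D2:**
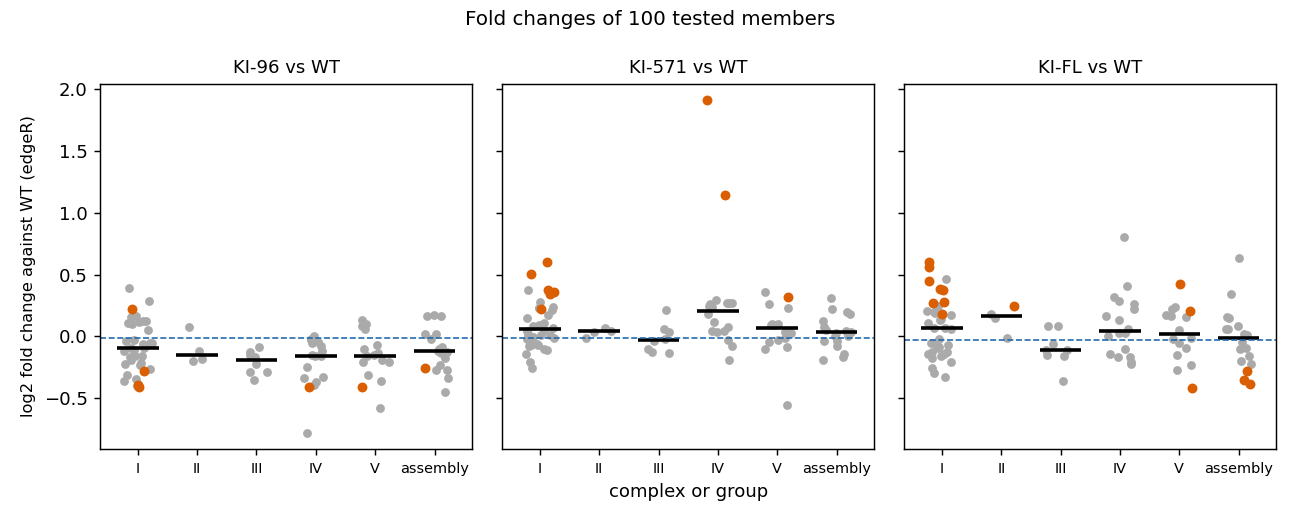
Log2 fold change against WT (vertical axis, edgeR) of the 100 tested members by complex, with a panel for each KI genotype. Points in orange had an unadjusted p under 0.05, black lines are medians of each complex and the dashed line is the median of all tested genes. Complex I holds 36 of the 100 tested members and 8 of the 11 that were higher in KI-FL, where 7.89% of all genes were higher. Every orange point but 1 lies below 0 in KI-96.

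The mean log2 CPM over the members of a complex was set against its mean in WT mice. For complex I, WT mice lay between -0.12 and 0.10, KI-571 mice between 0.02 and 0.17 and KI-FL mice between -0.06 and 0.16. The 4 KI-96 mice lay at 0.01, 0.06, -0.85 and 0.22, with replicate 3 as the low mouse. For complex II, KI-FL mice lay at 0.21, 0.05, 0.06 and 0.23 and WT mice between -0.08 and 0.09, so that the groups overlapped. For complex III, KI-96 replicate 3 lay at -1.14 and KI-FL replicate 4 at -0.35, while WT mice lay between -0.19 and 0.17. KI-571 replicate 1 at -0.27 and replicate 4 at 0.22 also lay outside the WT range. For complex IV, KI-571 mice lay at -0.19, 0.44, 0.14 and 0.43, and WT mice between -0.17 and 0.14. In KI-571 replicates 2 and 4 the alternative isoforms lay at 0.96 and 0.92 and the common subunits at 0.21 and 0.20, and these were the KI-571 mice with high choroid plexus genes described below. KI-FL mice lay between -0.81 and 0.32 and KI-96 mice between -1.22 and 0.27 for this complex. For complex V, WT mice lay between -0.15 and 0.19, and KI-571 replicate 1 (-0.18), KI-FL replicate 4 (-0.26) and KI-96 replicate 3 (-1.02) lay below that range. Assembly factors lay between -0.10 and -0.03 in KI-FL mice, between -0.06 and 0.09 in WT mice and at -0.16 and -0.40 in KI-96 replicates 1 and 3.

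**Figure D3:**
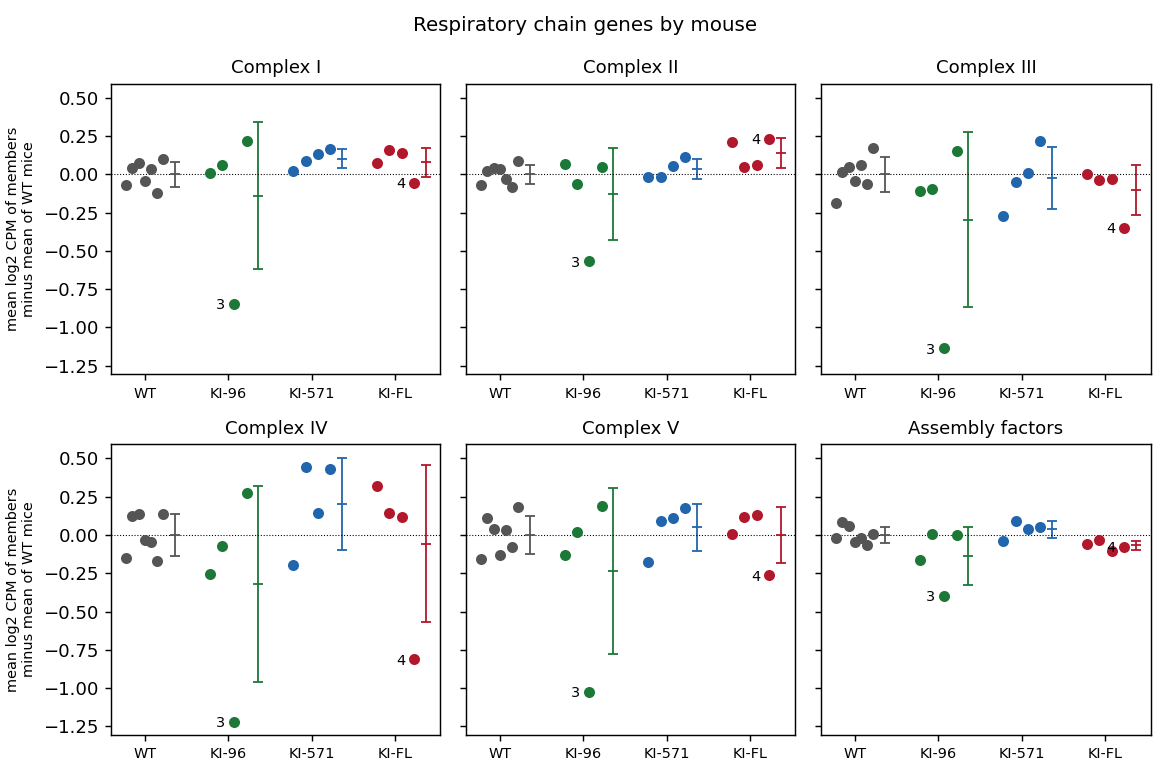
Mean log2 CPM of the members of each complex in each mouse, minus the mean of the 7 WT mice (vertical axis), by genotype. Points are mice, bars are the group mean and SD, and the digits 3 and 4 mark KI-96 replicate 3 and KI-FL replicate 4. KI-96 replicate 3 lies below every other mouse in all 6 panels.

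KI-96 replicate 3 set the direction of the KI-96 comparison. In this mouse 95 of the 100 tested members lay below the WT mean, and 40 of them by more than 1 on the log2 scale. The deviation was larger for members with short exons. The median was -1.16 for the 45 members under 1500 bases, -0.72 for the 29 members from 1500 to under 3000 bases and -0.48 for the 26 members of 3000 bases or more, while all tested genes of these lengths had medians of -0.21, -0.28 and 0.04. Across the 100 members, the deviation and the log10 exon length had a Pearson r of 0.43. It is given as a description, since the members share this library. In the other mice this r ran from -0.36 in WT replicate 3 to 0.34 in WT replicate 6, so a trend with length was not particular to this library. The members were shorter than other genes, with a median of 1696.5 bases of exon against 3851 over the tested genes. In the same mouse the mean over cytosolic ribosomal protein genes lay 0.60 below WT and that over mitochondrial DNA genes 0.78 below. Without this mouse, the median log2 fold change of the members in KI-96 was 0.03 in place of -0.14, with 14 members higher and 0 lower at an unadjusted p under 0.05, against 3.67% and 2.91% of all genes in that fit.

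**Figure D4:**
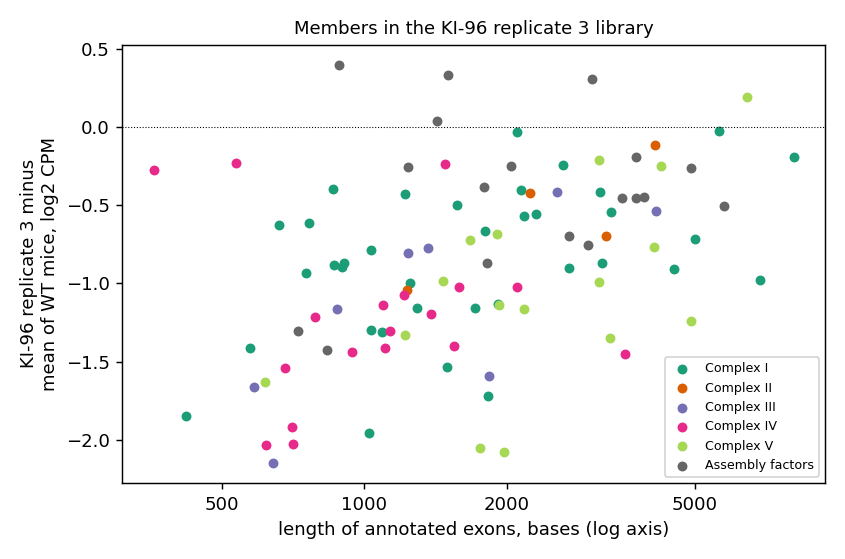
Log2 CPM of each tested member in KI-96 replicate 3 minus its mean in WT mice (vertical axis) against the length of its annotated exons in bases (horizontal axis, logarithmic). Points are the 100 tested members coloured by complex, and 95 of them lie below 0.

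Within complex I, Ndufb8 showed the smallest p against WT in both KI-571 and KI-FL. Ndufb8 (ENSMUSG00000025204.10, chr19:44548572-44555440 of GRCm38) encodes an accessory subunit of the membrane arm. Its level ranged from 39.5 to 54.6 CPM in WT mice with a median of 45.8. It was 68.8, 71.4, 78.2 and 72.5 CPM in the KI-FL mice, 74.9, 63.7, 77.1 and 57.4 CPM in the KI-571 mice, and 65.0, 69.6, 35.8 and 63.5 CPM in the KI-96 mice. Every KI mouse except KI-96 replicate 3 lay above all WT mice. The log2 fold change was 0.60 (SE 0.14) in KI-FL with an adjusted p of 0.0605 by edgeR, and 0.51 (SE 0.14) in KI-571 with an adjusted p of 0.207. Leaving out KI-96 replicate 3 alone brought the adjusted p to 0.0130 in KI-FL and 0.0436 in KI-571, with fold changes of 0.59 and 0.51. The spread of this mouse enters the error shared by the genotypes, and a fit of KI-FL and WT mice alone gave an adjusted p of 0.0164.

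Ndufb6, another accessory subunit of the membrane arm, ranged from 20.8 to 32.1 CPM in WT mice with a median of 25.4. It was 36.2, 41.1, 41.8 and 34.5 CPM in the KI-FL mice, all above WT, and 32.2, 33.4, 37.0 and 29.4 CPM in the KI-571 mice, which overlapped WT. The Ndufb6 log2 fold change was 0.57 (SE 0.15) in KI-FL with an adjusted p of 0.0958. Ndufa13, also known as GRIM-19, was not named by the rule and was chosen after its values were seen. It ranged from 85.5 to 109 CPM in WT mice with a median of 96.4, and was 118, 126, 137 and 147 CPM in the KI-FL mice and 135, 120, 132 and 109 CPM in the KI-571 mice. The KI-FL mice lay above all WT mice. Its log2 fold change was 0.45 (SE 0.16) in KI-FL with an adjusted p of 0.167 by edgeR.

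Other complex I members had an unadjusted p under 0.05 in KI-FL or KI-571, and 4 of them, named after their values were seen, are given here. Ndufa9, a subunit near the quinone site, was 78.4, 79.7, 78.8 and 72.2 CPM in the KI-FL mice and 50.2 to 66.4 CPM in WT mice with a median of 58.1, without overlap. In KI-FL Ndufa9 had a log2 fold change of 0.37 (SE 0.10) with an adjusted p of 0.09996 by edgeR. Ndufa5, an accessory subunit, was 124, 123, 127 and 112 CPM in the KI-FL mice and 74.8 to 102 CPM in WT mice with a median of 98.4, without overlap. In KI-FL Ndufa5 had a log2 fold change of 0.38 (SE 0.16) with an adjusted p of 0.235 by edgeR. Ndufb3, an accessory subunit of the membrane arm, was 62.0, 78.7, 70.2 and 54.0 CPM in the KI-FL mice and 48.9 to 61.3 CPM in WT mice with a median of 54.6, with overlap. In KI-FL Ndufb3 had a log2 fold change of 0.28 (SE 0.13) with an adjusted p of 0.294 by edgeR. Ndufs5, an accessory subunit, was 74.1, 81.3, 84.0 and 83.9 CPM in the KI-571 mice and 31.0 to 85.0 CPM in WT mice with a median of 42.0, with overlap. In KI-571 Ndufs5 had a log2 fold change of 0.60 (SE 0.22) with an adjusted p of 0.446 by edgeR. It shares 12.7% of its 100-base stretches with another annotated gene, so its counts are uncertain.

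The core subunits of complex I carry its flavin and iron-sulfur clusters. Their mean log2 CPM lay 0.09 above WT in KI-FL, with mice between 0.07 and 0.11, beside 0.07 for the accessory subunits, and 0.03 above WT in KI-571, beside 0.12. Ndufv1, which binds NADH, was 173, 162, 176 and 167 CPM in the KI-FL mice and 122 to 160 CPM in WT mice with a median of 138, so that the groups did not overlap. Ndufs1 was 111, 127, 125 and 128 CPM in the KI-FL mice, 107, 96.2, 97.8 and 114 CPM in the KI-571 mice and 112, 114, 94.5 and 105 CPM in the KI-96 mice. It was lower in KI-571 than in KI-FL by a log2 difference of -0.24 (SE 0.09), with an adjusted p of 0.453 by edgeR. Over all tested genes, 7.89%, 3.89% and 4.36% were higher at an unadjusted p under 0.05 in KI-FL, KI-571 and KI-96. In KI-96, 3.09% of all genes were lower. In the group of core subunits, 2 of 7 members were higher at an unadjusted p under 0.05 in KI-FL, 0 in KI-571 and 0 in KI-96. Among the 29 accessory subunits, 6 were higher in KI-FL, 6 in KI-571 and 1 in KI-96, and 3 were lower in KI-96. Of the latter, Ndufab1, the mitochondrial acyl carrier protein, was 14.7, 20.2, 11.9 and 24.6 CPM in the KI-96 mice and 19.2 to 29.0 CPM in WT mice with a median of 24.5. For Ndufab1 the log2 fold change of -0.41 (SE 0.17) became -0.26 without KI-96 replicate 3.

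In complex II, which is made only of nuclear-encoded subunits, Sdha, the flavoprotein that oxidizes succinate, was 451, 471, 498 and 475 CPM in the KI-FL mice. In WT mice it ranged from 353 to 467 CPM with a median of 386, and 3 of the KI-FL mice lay above this range. The Sdha log2 fold change in KI-FL was 0.25 (SE 0.10) with an adjusted p of 0.211 by edgeR, and it was 0.07 (SE 0.10) in KI-571. Sdhc, a membrane anchor, was 82.9, 70.2, 51.0 and 87.4 CPM in the KI-96 mice and 100.2, 86.3, 80.4 and 101 CPM in the KI-FL mice. The log2 difference between these groups was -0.34 (SE 0.13) with an adjusted p of 0.485, and -0.19 without KI-96 replicate 3. Sdhb, the iron-sulfur subunit, had means of 104 ± 6.54 CPM in WT (SD, n = 7), 95.4 ± 13.3 in KI-96, 103 ± 5.38 in KI-571 and 103 ± 7.08 in KI-FL (n = 4 each), with KI-96 replicate 3 at 77.2 and the other KI-96 mice between 94.2 and 107. Sdhd, the other anchor, was at 29.0 CPM in KI-96 replicate 3 and between 57.9 and 61.7 CPM in the other KI-96 mice.

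In complex III none of the 8 members had an unadjusted p under 0.05 against WT in any KI genotype. Of the 18521 tested genes, 1380 did in KI-96, 1430 in KI-571 and 3099 in KI-FL. With so few members, a count of 0 does not set this complex apart. The core protein Uqcrc1 had means of 189 ± 15.9 CPM in WT, 178 ± 33.3 in KI-96, 186 ± 12.4 in KI-571 and 181 ± 15.5 in KI-FL, with KI-96 replicate 3 at 130.1 and the other KI-96 mice between 182 and 201. The Rieske iron-sulfur protein Uqcrfs1 had means of 92.6 ± 7.67 CPM in WT, 79.4 ± 17.5 in KI-96, 84.9 ± 13.9 in KI-571 and 83.6 ± 13.1 in KI-FL, with KI-96 replicate 3 at 54.1 and the others between 81.8 and 93.0. The small subunit Uqcrq was 95.7, 85.5, 34.8 and 114 CPM in the KI-96 mice and 91.5 to 123 CPM in WT mice with a median of 102. The log2 fold change of Uqcrq of -0.36 (SE 0.19) became -0.10 without KI-96 replicate 3. In KI-96, 8 of 8 members of this complex had fold changes below 0, and 6 of 8 without that mouse. Over all tested genes, 9777 of 18521 lay below 0 in KI-96, and 10003 of 18746 without that mouse.

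In complex IV, Cox4i1, the largest of the nuclear-encoded common subunits, was 377, 356, 373 and 361 CPM in the KI-FL mice and 265 to 322 CPM in WT mice with a median of 290. In the KI-96 mice it was 372, 353, 111 and 339 CPM, and in the KI-571 mice 366, 359, 382 and 313 CPM. All KI-FL mice lay above WT, and the log2 fold change was 0.32 (SE 0.19) with an adjusted p of 0.403 by edgeR. In the fit of KI-FL and WT mice alone its SE was 0.07 and the adjusted p 0.0393. Cox5a had means of 42.7 ± 4.09 CPM in WT, 39.3 ± 13.8 in KI-96, 43.8 ± 5.25 in KI-571 and 43.7 ± 9.50 in KI-FL, with KI-96 replicate 3 at 20.9 and the others between 37.5 and 52.8. Cox7a2 was 68.6, 76.7, 33.5 and 96.8 CPM in the KI-96 mice and 74.7 to 112 CPM in WT mice with a median of 90.0, and its log2 fold change of -0.41 (SE 0.18) became -0.18 without KI-96 replicate 3.

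The alternative isoforms Cox6b2 and Cox8b were high in a few mice. Cox6b2, known from testis, was 2.93, 9.34, 4.93 and 8.97 CPM in the KI-571 mice, 6.97, 2.53, 4.50 and 1.57 CPM in the KI-FL mice, 1.66, 3.34, 1.03 and 4.55 CPM in the KI-96 mice and 2.49 to 3.79 CPM in WT mice with a median of 2.67. The 3 highest values were those of KI-571 replicates 2 and 4 and KI-FL replicate 1. Its log2 fold change in KI-571 was 1.15 (SE 0.38) with an adjusted p of 0.342 by edgeR. Cox8b, known from heart and skeletal muscle, was 0.432, 3.15, 0.110 and 5.16 CPM in the KI-571 mice and 3.25, 0.396, 0.455 and 0 CPM in the KI-FL mice, and its high values were in the same 3 mice. In WT mice it ranged from 0.286 to 1.02 CPM with a median of 0.496. Its log2 difference between KI-96 and KI-571 was -2.24 (SE 0.93) with an adjusted p of 0.826, and -1.39 without KI-571 replicate 4.

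These 3 mice were also the highest in the 6 choroid plexus genes fixed as markers (Ttr, Kl, Kcnj13, Folr1, Clic6 and Otx2). Their mean log2 CPM lay 4.05 and 4.49 above WT in KI-571 replicates 2 and 4 and 3.65 above WT in KI-FL replicate 1, and between -2.20 and 1.50 in the other mice. Their summed level ranged from 45.8 to 410 CPM in WT, from 36.4 to 93.7 in KI-96, from 46.9 to 5341 in KI-571 and from 36.6 to 3026 in KI-FL. In KI-571 all 6 of these genes were higher at an unadjusted p under 0.05, against 3.89% of all tested genes, and none passed the adjusted threshold. No choroid plexus gene was at 0 in a KI-571 or WT mouse. The part of choroid plexus tissue in the values of Cox6b2 and Cox8b was not tested.

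**Figure D5:**
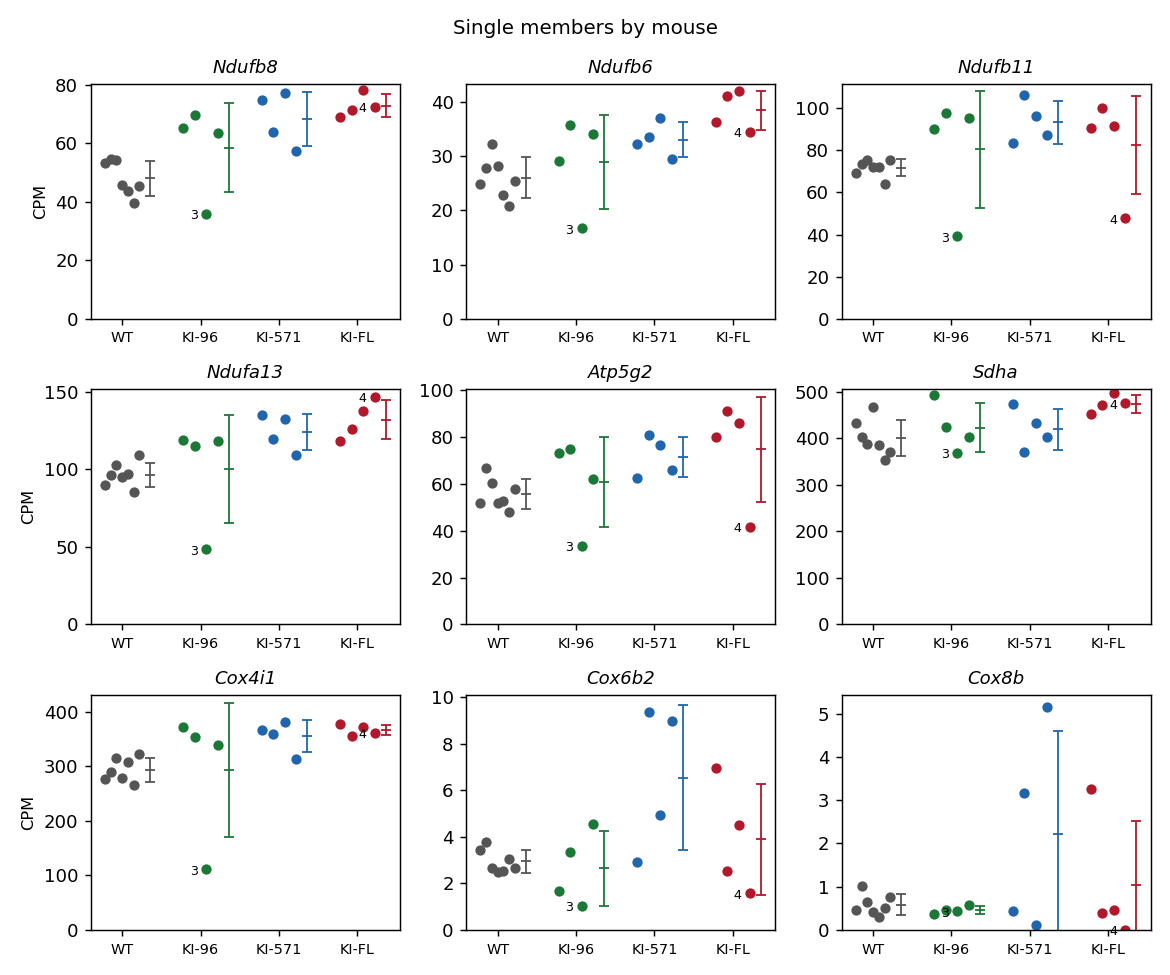
Level of 9 members in each mouse in CPM (vertical axis, from 0) by genotype. Points are mice, bars are the group mean and SD (cut at 0 in Cox8b), and the digits 3 and 4 mark KI-96 replicate 3 and KI-FL replicate 4. The 4 KI-FL mice lie between 68.8 and 78.2 CPM for Ndufb8, above all WT mice, and Cox6b2 and Cox8b are high in 2 KI-571 mice and 1 KI-FL mouse.

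In complex V, the c ring that turns with the passing protons is encoded by Atp5g1, Atp5g2 and Atp5g3, whose proteins are identical once their import signals are removed. Atp5g2 was 80.1, 91.2, 86.0 and 41.7 CPM in the KI-FL mice, 62.6, 80.8, 76.4 and 66.0 CPM in the KI-571 mice and 48.1 to 66.9 CPM in WT mice with a median of 52.6. Of the KI-FL mice, 3 lay above all WT mice and replicate 4 below them. The log2 fold change was 0.43 (SE 0.19) with an adjusted p of 0.254 by edgeR, and 0.63 without KI-FL replicate 4. Atp5g3 was 229, 212, 216 and 217 CPM in the KI-FL mice and 170 to 204 CPM in WT mice with a median of 181, without overlap, and Atp5g1 was 164, 133, 128 and 111 CPM against 94.7 to 127 CPM in WT mice, with overlap. Fold changes of all 3 c ring genes were above 0 in KI-571 (0.10 to 0.36) and in KI-FL (0.23 to 0.43). Of all 18521 tested genes, 8940 and 8534 were above 0 in these genotypes. Among the 3, Atp5g2 in KI-FL had an unadjusted p under 0.05, where 7.89% of all genes were higher.

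In the catalytic head, Atp5a1 was 876, 843, 885 and 858 CPM in the KI-FL mice and 697 to 801 CPM in WT mice with a median of 750, without overlap. Its log2 fold change of 0.21 (SE 0.10) had an unadjusted p under 0.05 and an adjusted p of 0.279 by edgeR. The other 4 genes of the head had no unadjusted p under 0.05 in KI-FL, where 7.89% of all genes were higher and 8.84% lower. Atp5b had means of 1100.3 ± 104 CPM in WT, 1168 ± 169 in KI-96, 1172 ± 69.3 in KI-571 and 1237 ± 87.6 in KI-FL. Atp5j2, in the membrane part, was 98.1, 87.8, 44.6 and 116 CPM in the KI-96 mice and 85.0 to 153 CPM in WT mice with a median of 113. Its log2 fold change of -0.41 (SE 0.18) became -0.20 without KI-96 replicate 3.

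Of the 18 assembly factors, 3 were lower in KI-FL and 1 was lower in KI-96 at an unadjusted p under 0.05, and none was higher in any KI genotype against WT, where 8.84% and 3.09% of all genes were lower. Without KI-FL replicate 4, 1 assembly factor was lower in KI-FL, against 7.19% of all genes. Ndufaf4, an assembly factor of complex I, was 32.0, 30.2, 21.9 and 20.7 CPM in the KI-FL mice and 28.2 to 38.1 CPM in WT mice with a median of 33.3, and the groups overlapped. Its log2 fold change was -0.35 (SE 0.13) with an adjusted p of 0.198 by edgeR, and -0.26 without KI-FL replicate 4. Atp5s, a factor linked to ATP synthase, was 12.8, 11.2, 12.7 and 14.0 CPM in the KI-96 mice, 13.6, 11.95, 12.6 and 11.7 CPM in the KI-FL mice and 14.2 to 16.0 CPM in WT mice with a median of 15.2. All 8 of these KI mice lay below all WT mice, with a log2 fold change of -0.25 (SE 0.11) in KI-96 and an adjusted p of 0.653. Cox11, which delivers copper to complex IV, was 8.50, 7.44, 8.98 and 7.30 CPM in the KI-571 mice and 13.3, 10.1, 9.25 and 13.8 CPM in the KI-FL mice. The log2 difference was -0.53 (SE 0.19) with an adjusted p of 0.427 by edgeR. Cox10, an assembly factor of complex IV, had a log2 fold change of 0.22 (SE 0.12) in KI-571.

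The KI genotypes were also compared with each other. Between KI-96 and KI-571, 0 members were higher and 2 (Cox6b2 and Cox8b) lower in KI-96 at an unadjusted p under 0.05, against 3.14% and 2.38% of all genes, with 0.00540% past the adjusted threshold. Between KI-96 and KI-FL, 0 were higher and 5 lower, against 5.13% and 3.77% of all genes, with 0% past the adjusted threshold. Between KI-571 and KI-FL, 2 were higher and 3 lower in KI-571, against 4.67% and 4.23% of all genes, with 0.0864% past the adjusted threshold. The medians over the members were -0.21, -0.16 and 0.05, beside 0.00, 0.02 and 0.02 over all genes. Without KI-96 replicate 3 the first became -0.02 and the second 0.01, and without KI-FL replicate 4 the third became -0.02.

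When KI-96 replicate 3 and KI-FL replicate 4 were both left out, a choice made after seeing the data, all 101 members were tested among 18770 genes. In KI-96, 16 members were then higher and 3 lower at an unadjusted p under 0.05, against 4.63% and 4.77% of all genes, and 0 passed the adjusted threshold, which 0.0213% of all genes did. In KI-571, 20 were higher and 1 lower, against 6.20% and 6.10%, and 3 passed (Ndufb8, Ndufb11 and Ndufa13), against 0.485% of all genes. In KI-FL, 21 were higher and 2 lower, against 7.70% and 8.65%, and 5 passed (Atp5g2, Ndufb8, Ndufb6, Ndufb11 and Ndufa13), against 0.479% of all genes. All of these fold changes were above 0. Members took 0.575% and 0.957% of the counts in the libraries left out, the lowest shares in their groups. Leaving them out thus favours higher fold changes in KI-96 and KI-FL and narrows the shared spread. These counts and signs are partly set by that choice and are not independent support. The medians over the members stayed small, at 0.03 in KI-96, 0.05 in KI-571 and 0.03 in KI-FL. With all KI-FL and WT mice fitted alone, 6 members passed in KI-FL (Ndufb8, Ndufa13, Ndufb6, Cox4i1, Ndufa9 and Ndufa5), against 1.89% of all genes. With WT replicates 1 to 4 in place of all 7 WT mice, 0, 4 and 4 members had an unadjusted p under 0.05 in the KI-96, the KI-571 and the KI-FL group, against 2.91%, 4.13% and 8.50% of all genes, and none of these counts exceeded the share over all genes.

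Ndufb11 (chrX:20615326-20617619 of GRCm38), an X-linked accessory subunit of complex I that was chosen after its values were seen, showed how the excluded libraries bore on a member. It was 90.0, 97.6, 39.1 and 95.2 CPM in the KI-96 mice, 83.4, 106, 96.5 and 87.1 CPM in the KI-571 mice, 90.7, 99.9, 91.7 and 47.8 CPM in the KI-FL mice and 63.8 to 75.6 CPM in WT mice with a median of 72.1. Each of the 10 other KI mice lay above all WT mice, and the excluded pair lay below them. Without the pair its log2 fold changes were 0.39 (SE 0.08) in KI-96, 0.38 (SE 0.07) in KI-571 and 0.39 (SE 0.08) in KI-FL, with adjusted p of 0.0889, 0.0301 and 0.0386 by edgeR. Xist, which marks the inactive X chromosome of females, was high in all 4 KI-96 mice, 1 WT mouse, 1 KI-FL mouse and 0 KI-571 mice. The genotypes were thus not balanced in it, and sex cannot be told apart from genotype between KI-96 and KI-571.

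Other genes of the same pathway that the symbols do not cover were taken from lists. Of the 12 tested protein-coding genes of mitochondrial DNA, 2 were higher in KI-96, 4 in KI-571 and 4 in KI-FL at an unadjusted p under 0.05 and 0 were lower, and none passed the adjusted threshold. Of 32 tested assembly factors with other symbols, 0, 1 and 3 were higher and 2, 0 and 1 lower in these genotypes, in the same order. Of 13 genes of coenzyme Q synthesis, 0, 0 and 2 were higher and 1, 0 and 0 lower. Of 4 tested subunits with other symbols, among them Cyc1 (cytochrome c1) and Cycs (cytochrome c), 0, 1 and 1 were higher and 0 lower. Of 13 regulators of these genes, 0, 0 and 2 were higher and 0, 2 and 2 lower. Of 77 cytosolic ribosomal protein genes, which are also short and abundant, 2, 17 and 11 were higher and 3, 0 and 4 lower. Over all tested genes, 4.36%, 3.89% and 7.89% were higher and 3.09%, 3.83% and 8.84% lower in the same comparisons. The median log2 fold changes of the ribosomal genes were -0.06, 0.11 and 0.05.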

How the data were processed

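RNA-seq of total RNA from the striatum of 19 mice was analysed. Per the labels and the study's methods, the authors trimmed reads with BBduk, discarded those under 100 bp, aligned with STAR to GRCm38 and counted reads per gene with HTSeq; tool versions, annotation release and strand setting were not given in the sources used here. The deposited values are whole-number counts, not normalized. 4 columns matching no sample were not used, and the 5 HTSeq summary lines stayed out of library sizes. Reads on no feature are given in the results.

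Genes were tested with edgeR 4.0.16 (R 4.3.3; TMM scaling, quasi-likelihood F-test, filterByExpr with a minimum count of 10 and total of 15, Benjamini-Hochberg threshold 0.05) in 1 fit of all 19 mice, with no covariate. The authors' model had a batch term and left out a WT mouse, and neither is identified in the labels. The biological coefficient of variation was 0.240. Levels are CPM, and means over members are of log2 CPM with a prior count of 2, given without a test. Lengths and positions are GENCODE M21, of which 54165 gene IDs matched. No libraries of the same genotype were duplicates, and libraries of different genotypes were not compared for this. Replicates are separate mice by their labels, and p-values measure the spread between them.

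Members were named if past the adjusted threshold, if smallest in p within a complex against WT or among the 3 smallest between KI groups, if in a list of core subunits or isoform pairs, or if among the 5 highest or lowest per kb in WT. The members and lists were chosen with earlier results of these data known. Alternatives were DESeq2 1.42.0, size factors, other filters, only the groups compared, Xist or 1 surrogate variable (sva 3.50.0) as covariate, WT replicates 1 to 4, a threshold of 0.1, a replicate block and leaving out each mouse.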

Additional observations from a re-analysis of the deposited data

Results flagged for a closer look

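Of 208 groups of 4 to 7 mice examined for a single distant mouse by Dixon's criterion, 18 were past its critical value, where chance gives about 10. Values for genes are log2(CPM + 1). KI-96 replicate 3 was distant from the other KI-96 mice in 4 genes, with 6.81 for Cox4i1 (others 8.41 to 8.54), 6.70 for Cox6a1 (8.79 to 9.01), 5.20 for Ndufb8 (6.01 to 6.14) and 4.90 for Sdhd (5.88 to 5.97).

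KI-FL replicate 4 was distant in 7 measures. Its mean log2 CPM was 5.37 over all members (others 5.68 to 5.70) and 6.18 over complex III (6.49 to 6.52), and members took 0.957% of its reads (1.06% to 1.07%). Its value was 5.42 for Atp5g2 (6.34 to 6.53), 0 for Cox4i2 (1.46 to 1.71), 6.56 for Cox6b1 (6.93 to 7.01) and 0.407 for Ndufa4l2 (1.36 to 1.50).

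The other 7 lay in other mice. KI-571 replicate 1 had 6.37 for Cox6b1 (others 7.08 to 7.15), 7.29 for Cox8a (8.38 to 8.41) and 6.71 for Ndufa4 (7.38 to 7.41), all common subunits of complex IV. KI-571 replicate 4 had 0.764 for Cox16 (0.821 to 0.827). KI-96 replicate 1 had 3.63 for Atp5l (3.95 to 3.96). Cox7b2, which was too low to test, was 0.726 in KI-96 replicate 2 (0 to 0.101) and 0.551 in KI-FL replicate 1 (0 in the others).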

How the results depend on the processing

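Counts are of members, with the share of all tested genes in parentheses, at an adjusted p under 0.05 where so named and otherwise at an unadjusted p under 0.05. The cause of these changes was not tested. Against 0 adjusted in KI-FL, DESeq2 gave 3 (2.75%), no filter 1 (0.231%), a minimum of 10 counts in every mouse 1 (0.402%), only the groups compared 6 (1.89%), a threshold of 0.1 3 (1.43%) and leaving out both KI-96 replicate 3 and KI-FL replicate 4 5 (0.479%). The last gave 3 (0.485%) in KI-571 and 4 (0.373%) in any of 4 genotypes, where DESeq2 gave 1 (2.33%). With all mice, unadjusted counts were 7 (7.45%), 9 (7.72%) and 15 (16.7%) for the KI-96, the KI-571 and the KI-FL group against WT. Only the groups compared gave 3 (10.1%), 20 (12.2%) and 26 (18.995%), and 0 (3.54%) in KI-96 against KI-FL. The Xist covariate gave 0 (1.17%) in KI-96, 0 (1.55%) in KI-96 against KI-571, 2 (3.32%) in KI-96 against KI-FL and 3 (8.22%) in KI-571 against KI-FL. Xist was high in every KI-96 mouse and in no KI-571 mouse, so this covariate cannot separate sex from genotype between them. WT replicates 1 to 4 gave 0 (2.91%), 4 (4.13%) and 4 (8.50%) against WT, 2 (6.71%) in KI-96 against KI-FL, 2 (6.93%) in KI-571 against KI-FL and 2 (6.00%) in any. With 1 surrogate variable there were 1 (6.89%) in KI-96 against KI-571, 8 (8.67%) in KI-96 against KI-FL and 8 (11.015%) in any. DESeq2 gave 4 (6.14%) in KI-96 against KI-571 and 13 (15.037%) in any, and no filter 4 (5.54%), 3 (9.40%) in KI-571 against KI-FL and 10 (11.3%) in any. Leaving out both libraries gave 19 (9.40%), 21 (12.3%) and 23 (16.4%) against WT, 4 (6.14%) in KI-96 against KI-571, 2 (5.80%) in KI-96 against KI-FL and 19 (14.0%) in any. It moved the KI-96 difference from WT in mean log2 CPM over the members from -0.20 to 0.025. With each mouse's median over the members in place of its mean, the same difference in KI-FL was 0.15 in place of 0.0024.

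Same-numbered mice correlated between -0.13 and 0.29. Mice with different numbers were not correlated for comparison, so this does not settle whether the numbers pair mice. The replicate block, without WT replicates 5 to 7, gave 0 (2.9954%), 3 (4.04%) and 4 (8.14%) against WT, 1 (4.43%) in KI-96 against KI-571, 2 (6.76%) in KI-571 against KI-FL and 1 (5.62%) in any, and Sdha in KI-571 turned to -0.0089 with it and to -0.0069 with WT replicates 1 to 4.

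Parentheses in this paragraph name the mouse left out. Leaving out each mouse gave 1 (WT replicate 7) to 32 (KI-96 replicate 4) in KI-96. Against WT, it gave 5 (WT replicate 6) to 20 (KI-96 replicate 3) in KI-571. In KI-FL it gave 7 (KI-FL replicate 3) to 23 (KI-96 replicate 3). It gave 1 (KI-571 replicate 2) to 29 (KI-96 replicate 4) in KI-96 against KI-571, 1 (KI-96 replicate 3) to 17 (KI-96 replicate 4) in KI-96 against KI-FL, 2 (KI-FL replicate 3) to 7 (KI-FL replicate 1) in KI-571 against KI-FL and 4 to 17 in any. Without KI-96 replicate 3, 903 of all 18746 tested genes were higher and 837 lower in KI-571, and 1588 and 1912 in KI-FL. For the other mice left out, the share over all genes is not given here, so those counts have no background. Adjusted counts ran from 0 to 1 in KI-571, 0 to 3 in KI-FL and 0 to 2 in any. The highest came without KI-96 replicate 3, where 0.0800%, 0.848% and 0.293% of all genes passed. Differences from WT in the mean over members ran from -0.32 to 0.025 in KI-96, 0.051 to 0.15 in KI-571 and -0.029 to 0.084 in KI-FL.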
